A study of Mus musculus with 8 samples.

Results

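The contractile apparatus of heart muscle was followed through 43 genes that encode sarcomere proteins and other structural or muscle-specific proteins of the cardiomyocyte, out of 22518 genes quantified in whole mouse hearts. The genes were chosen by name, and each of the 43 was found once in the table. Hearts of C57BL/6 mice at postnatal day 12 were sequenced, with 4 wild type libraries from littermates and 4 from mice carrying an endothelial knockout of PHD2 and PHD3, the oxygen-dependent prolyl hydroxylases that mark hypoxia-inducible factor for degradation. The Cre line that drives the deletion is not given in the sources used here, and nothing in the labels ties a library to an animal of its own, so p-values cover the spread among these 8 libraries, which may be technical. Egln1, which encodes PHD2, ran from 45.2 to 57.9 FPKM in the wild type libraries and from 52.6 to 63.5 FPKM in the knockout libraries, and Egln3, which encodes PHD3, from 18.0 to 38.7 and from 32.6 to 52.8 FPKM, neither of them lower. Whole-heart values also hold the RNA of other cells, so they do not check the deletion in endothelium. Since the deletion lies in endothelial cells while the 43 genes are expressed mainly in cardiomyocytes, the comparison asks how muscle gene expression differed in hearts whose endothelium lacked the enzymes.

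A sarcomere is built of thick filaments of myosin and thin filaments of actin, tropomyosin and troponin, anchored at the Z-disc, cross-linked at the M-band and spanned by the giant protein titin. Several of its parts exist as isoforms encoded by separate genes. In the mouse ventricle, beta myosin heavy chain (Myh7) gives way to alpha (Myh6) and slow skeletal troponin I (Tnni1) gives way to cardiac troponin I (Tnni3) around and after birth, so the ratio of such a pair within one heart is a common measure of maturation or of a fetal gene programme.

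Values are FPKM, fragments scaled to transcript length and library size, which the authors had quantile normalised, so that all libraries share nearly the same set of values. In the 39 highest ranks every library holds exactly the same numbers, and 9 members (Myl2, Tpm1, Actc1, Mb, Myl3, Tnnt2, Tnnc1, Tnni3 and Myh6) lay in these ranks in all 8 libraries. For these 9 genes a difference between hearts is a difference in rank, and repeated values are the rule. Depth is unknown and counting error cannot be given. Where 4 values of a group are listed, they run from replicate 1 to replicate 4, and a fold is a ratio of mean FPKM. A log2 change is the difference of log2(FPKM + 1), knockout minus wild type, ± SE from limma fitted to the 11390 genes that averaged 1 FPKM or more, and a gene was called at an adjusted p under 0.05. All 43 members passed that filter.

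Promoter sequences are shown here for the myosin pair, for the neighbouring troponin genes that were both lower, for 3 of the raised genes and for Ankrd1, because these carry the main differences described below. Each is the 250 bases before the transcription start in RefSeq (GRCm38.p6, the same assembly as mm10), written 5′ to 3′ on the strand of the gene. Where RefSeq has several starts, the one farthest upstream is shown. Capitals mark matches, on either strand, to 4 short motifs, ACGTG (the core bound by hypoxia-inducible factors), CATTCC (MCAT, bound by TEAD factors), AGATAA (bound by GATA factors) and TATAAA (the TATA box), and to the CArG box bound by SRF. No match overlapped a match of another motif in these windows.
Myh6 (chr14:54966608-54966857, minus strand): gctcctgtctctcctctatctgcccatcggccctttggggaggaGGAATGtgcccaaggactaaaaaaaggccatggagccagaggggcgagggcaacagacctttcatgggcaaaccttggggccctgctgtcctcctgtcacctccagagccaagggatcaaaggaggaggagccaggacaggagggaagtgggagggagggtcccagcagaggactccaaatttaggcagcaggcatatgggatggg
Myh7 (chr14:54994627-54994876, minus strand): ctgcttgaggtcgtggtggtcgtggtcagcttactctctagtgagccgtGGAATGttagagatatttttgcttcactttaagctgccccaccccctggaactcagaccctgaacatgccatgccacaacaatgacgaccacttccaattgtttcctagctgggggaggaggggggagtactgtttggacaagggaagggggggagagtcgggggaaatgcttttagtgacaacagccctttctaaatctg
Tnni3 (chr7:4522529-4522778, minus strand): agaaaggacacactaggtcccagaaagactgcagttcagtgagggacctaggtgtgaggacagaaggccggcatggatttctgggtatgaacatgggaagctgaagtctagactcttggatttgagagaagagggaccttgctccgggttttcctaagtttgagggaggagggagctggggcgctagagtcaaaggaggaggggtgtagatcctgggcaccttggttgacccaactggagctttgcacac
Tnnt1 (chr7:4515976-4516225, minus strand): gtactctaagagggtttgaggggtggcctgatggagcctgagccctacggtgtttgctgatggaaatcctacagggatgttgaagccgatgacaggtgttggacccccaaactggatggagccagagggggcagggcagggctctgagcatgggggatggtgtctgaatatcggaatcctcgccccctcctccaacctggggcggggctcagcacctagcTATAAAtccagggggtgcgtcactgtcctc
Mybpc3 (chr2:91117894-91118143, plus strand): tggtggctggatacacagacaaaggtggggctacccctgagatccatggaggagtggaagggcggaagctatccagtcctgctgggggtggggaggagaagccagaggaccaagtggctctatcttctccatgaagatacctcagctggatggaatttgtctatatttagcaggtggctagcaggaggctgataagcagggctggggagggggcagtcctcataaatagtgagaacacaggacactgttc
Pdlim5 (chr3:142395697-142395946, minus strand): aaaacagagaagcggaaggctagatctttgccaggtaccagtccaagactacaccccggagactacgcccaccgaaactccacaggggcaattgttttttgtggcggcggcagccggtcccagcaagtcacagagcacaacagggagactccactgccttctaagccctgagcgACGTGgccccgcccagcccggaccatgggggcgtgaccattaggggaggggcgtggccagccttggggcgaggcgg
Myom1 (chr17:71019307-71019556, plus strand): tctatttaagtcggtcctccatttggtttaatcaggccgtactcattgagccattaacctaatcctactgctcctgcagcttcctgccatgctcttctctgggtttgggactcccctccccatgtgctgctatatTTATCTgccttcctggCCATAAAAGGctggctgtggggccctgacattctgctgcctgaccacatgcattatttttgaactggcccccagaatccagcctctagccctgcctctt
Ankrd1 (chr19:36119845-36120094, minus strand): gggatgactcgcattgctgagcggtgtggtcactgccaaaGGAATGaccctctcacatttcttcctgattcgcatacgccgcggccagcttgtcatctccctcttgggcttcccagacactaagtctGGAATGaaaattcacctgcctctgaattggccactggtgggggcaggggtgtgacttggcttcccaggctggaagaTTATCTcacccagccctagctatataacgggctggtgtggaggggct

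Myh6 and Myh7 each hold 1 MCAT match, 206 and 201 bases before the start, and Ankrd1 holds 2, at 210 and 123 bases, with a GATA match at 47 bases. The Myom1 window holds a GATA match at 115 bases and a CArG box at 99 bases, Tnnt1 a TATA match at 30 bases and Pdlim5 an ACGTG at 76 bases. In the windows of Mybpc3 and Tnni3 none of these letters were found. Of the 43 members, 36 had a promoter in the table, with 51 windows between them. An MCAT match stood in 25.5% of the 51 windows and in 12.6% of all 32851 windows of that length, a CArG box in 11.8% and 1.47%, a GATA match in 15.7% and 9.99%, a TATA match in 7.84% and 12.4%, and ACGTG in 9.80% and 16.6%. Windows of a gene can overlap, and both windows of Ldb3 hold the same CArG box, so the CArG matches came from 5 genes. These shares describe letters in a window and were not tested.

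The 43 genes spanned a wide range of levels. A mean over the 8 libraries of at least 1000 FPKM was reached by 11 of them, 14 lay between 100 and 1000 FPKM and 18 between 10 and 100 FPKM. The ventricular myosin light chain Myl2 was the highest, between ranks 6 and 12 of all genes, with 11528, 14925, 11528 and 14925 FPKM in wild type hearts, and 14925, 11528, 11528 and 7544 FPKM in knockout hearts. The ubiquitin ligase adaptor Fbxo32, also called atrogin-1, was the lowest. The members together held 10.5% to 11.8% of all FPKM in the wild type libraries and 9.55% to 11.5% in the knockout libraries, ranges that overlap, and this share is shaped by the fixed top ranks.

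**Figure D1:**
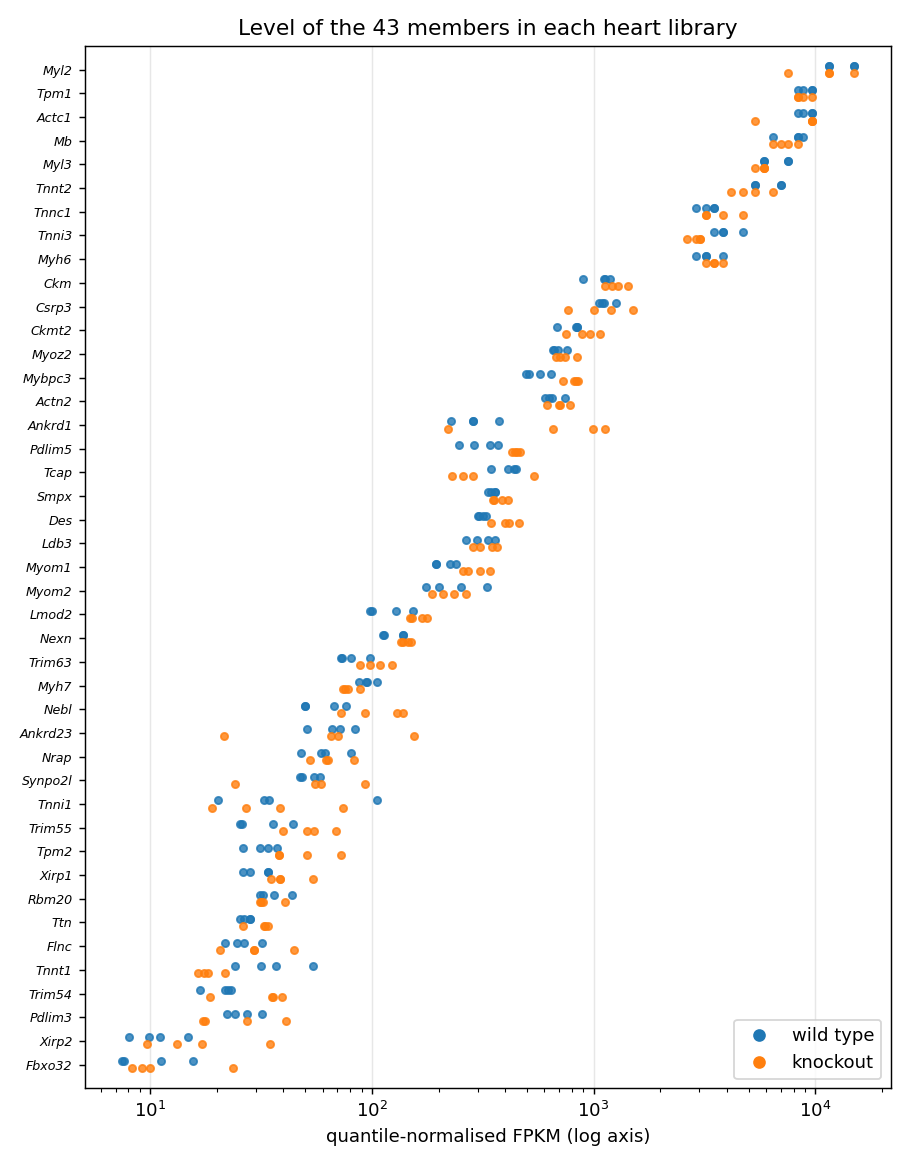
FPKM on a log axis of each of the 43 members, ordered by mean level; each point is a library, with wild type in blue and knockout in orange. Ventricular light chain, tropomyosin and actin genes lie at the top and Fbxo32 between 7.46 and 23.8 FPKM, and for most genes the points of the groups overlap.

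Among the 43 genes, 5 rose in the knockout hearts (Mybpc3, Pdlim5, Myom1, Des and Nebl), 2 fell (Tnni3 and Tnnt1) and 36 did not pass the test. That is 16.3% of the members called, against 12.2% of the 11390 genes tested. The rises make up 11.6% of the members, against 6.15% of all genes, and the falls 4.65%, against 6.01%. The groups did not overlap for 8 members, or 18.6%, against 20.7% of all genes. Of these members 6 were higher in the knockout, where the share of all genes was 10.3%, and 2 lower, where it was 10.4%. The median log2 change of the members was 0.10, with 27 higher and 16 lower in the mean of the knockout. That of all genes was -0.01, with 48.3% of them higher. The shares called lie near those of all genes, no list was tested as a set, and the counts single out nothing about the 43. Counts given below for roles and other lists stand against 6.15% of all genes raised and 6.01% lowered. Shares of short lists carry little weight. In bulk tissue, a different number of cardiomyocytes and a different amount of RNA per cardiomyocyte cannot be told apart. When every library was shifted to the same median over the 43 members, which moved the median of all genes by -0.135 on the log2 scale, 2 members were higher (Nebl and Trim55) and 3 lower (Tcap, Tnnt1 and Tnni3), and the split of all calls moved from 701 higher and 684 lower to 316 higher and 891 lower.

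**Figure D2:**
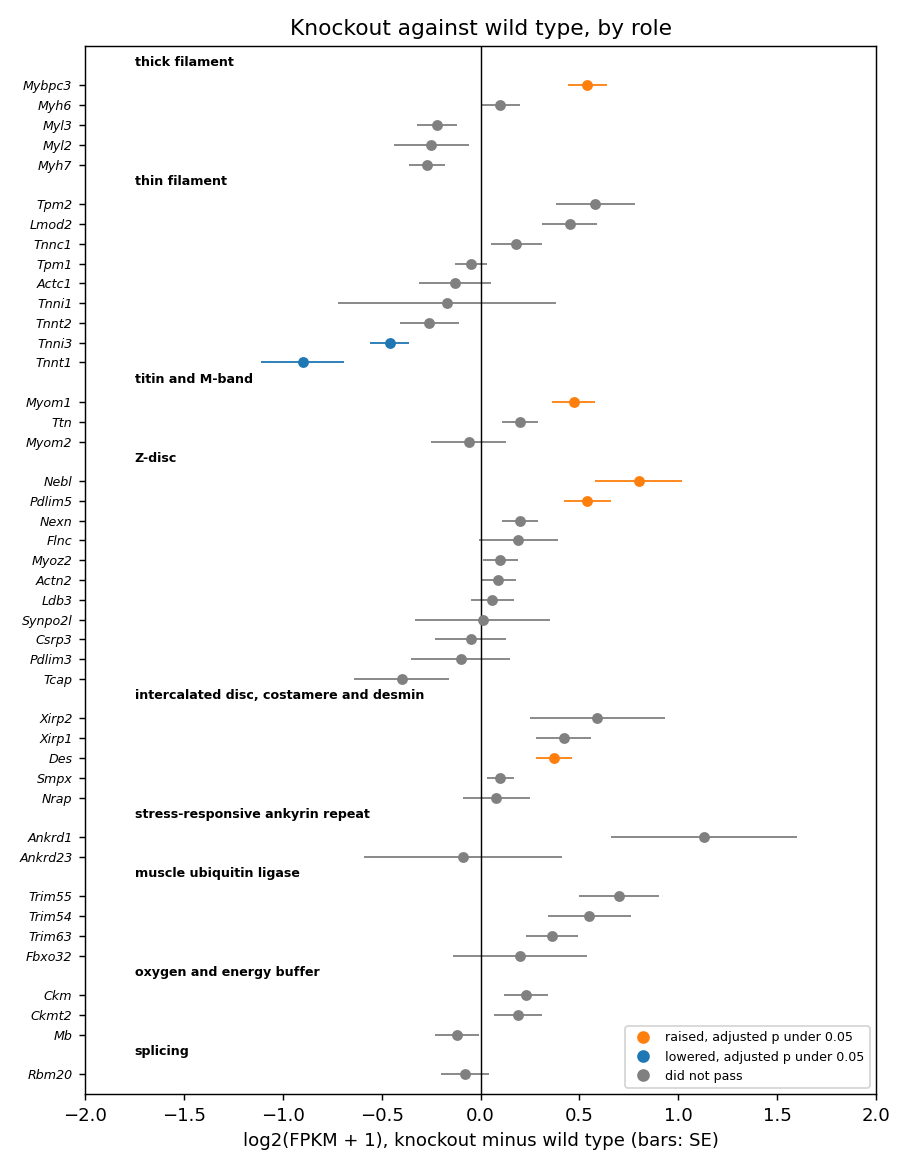
Log2 change, knockout minus wild type, of each member with its SE, grouped by role; orange points rose and blue points fell at adjusted p under 0.05 (limma), grey points did not pass. The called members lie at -0.90 and -0.46 and between 0.37 and 0.80, and Ankrd1 has the largest mean difference with a wide error.

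The libraries differed in ways that touch some members. Wild type replicate 4 held 1244 FPKM of 7 lung markers, mostly Scgb1a1 and Scgb3a2, while no other library exceeded 1.14 FPKM. Bmp10, an atrial gene, was at 1.12 FPKM or less in wild type replicates 1 and 4 and knockout replicates 1 and 4, and between 49.6 and 141 FPKM in the others. The 8 atrial markers, Nppa among them, summed to 2560.0 to 3966 FPKM in the wild type and 2897 to 11965 FPKM in the knockout. Nppa alone ran from 1246 to 1786 FPKM in the wild type and from 2195 to 8759 FPKM in the knockout. Of the 8 markers, 4 had a higher and 4 a lower mean in the knockout, with a median log2 change of -0.10, and none was called. Ddx3y, a Y chromosome gene, was at 1.10 FPKM or less in wild type replicates 2 and 3 and knockout replicate 1, and between 14.0 and 22.2 FPKM in the others. Of 16 skeletal muscle markers 11 stayed under 1 FPKM in every library, among them Myh1, Myh2, Myh4 and Actn3. Knockout replicate 4 carries a library number outside the run of the others, and a batch of 1 knockout library cannot be told apart from that library. Summed leukocyte markers ran from 60.7 to 68.4 FPKM in the wild type and from 86.4 to 101 FPKM in the knockout libraries, with 1 of 6 tested genes raised (Lyz2, limma adjusted p = 0.00453). Of 8 fibroblast markers 2 fell (Dcn, adjusted p = 0.00476, and Lum, 0.0366), of 8 endothelial markers 1 fell (Tie1, 0.00202), and of 6 smooth muscle markers 1 rose (Tagln, 0.0119) and 1 fell (Smtn, 0.0365). The summed levels ran from 1073 to 1202 and from 922 to 1122 FPKM for fibroblasts, from 524 to 637 and from 478 to 570.5 FPKM for endothelium, and from 483 to 929.5 and from 414 to 724 FPKM for smooth muscle, in wild type and knockout. Erythroid markers ran from 1235 to 5679 FPKM in the wild type and from 205 to 1519.7 FPKM in the knockout, and none of the 3 tested genes passed, at adjusted p of 0.0759 to 0.122. The part of these cells in the results was not tested. Cardiomyocyte markers were high throughout, with Myh6 at 2883 FPKM or more in every library.

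Of the 5 thick filament genes, 1 rose and 4 did not pass. Mybpc3, which encodes cardiac myosin-binding protein C, a brake on cross-bridge formation, measured 641, 497, 575 and 509.7 FPKM in wild type hearts, and 835, 852, 813 and 727 FPKM in knockout hearts. Every knockout heart lay above every wild type heart. The mean rose from 556 ± 66.1 to 806 ± 55.4 FPKM (SD, n = 4), 1.45-fold (log2 change 0.54 ± 0.10, limma adjusted p = 0.00782). The gene lies on chromosome 2 at 91118144 to 91136516 in mm10. Mybpc3 was called with each library left out in turn, at adjusted p of 0.00541 to 0.0328, and had the smallest adjusted p of the 43 genes. It was not called after the shift to a common median of the members (adjusted p = 0.124).

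Alpha myosin heavy chain, Myh6, measured 3836, 3208, 3208 and 2883 FPKM in wild type hearts, and 3502, 3208, 3836 and 3502 FPKM in knockout hearts. These values lay within the same few ranks, 19 to 23 of all genes (log2 change 0.10 ± 0.10, limma adjusted p = 0.509). Beta myosin heavy chain, Myh7, measured 106, 94.2, 95.1 and 87.4 FPKM in wild type hearts, and 75.6, 78.5, 74.2 and 88.6 FPKM in knockout hearts. Only knockout replicate 4 reached the wild type range, by exceeding wild type replicate 4. Myh7 did not pass the test (log2 change -0.27 ± 0.09, limma adjusted p = 0.0689), although it did without knockout replicate 4 (adjusted p = 0.0290). The essential and regulatory light chains Myl3 and Myl2 were 1.17-fold and 1.16-fold lower in the mean, with overlapping libraries (limma adjusted p = 0.189 and 0.420).

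Within each heart, Myh7 made up a smaller part of the myosin heavy chain pair in the knockout. For every 1000 FPKM of Myh6 there were 27.7, 29.4, 29.6 and 30.3 FPKM of Myh7 in the wild type hearts and 21.6, 24.5, 19.3 and 25.3 FPKM in the knockout hearts. The groups did not overlap, and the wild type hearts lay close together. Myh6 took only the shared values 2883, 3208, 3502 and 3836 FPKM, so a step of a single rank moves the ratio. The denominators Tnni3, Tnnt2 and Tpm1 of the ratios below lay on shared values too. The mean ratio was 29.3 ± 1.14 per 1000 in the wild type and 22.7 ± 2.73 per 1000 in the knockout (SD, n = 4), a log2 difference of -0.37 ± 0.09. The exact two-sided permutation p over 70 splits was 0.0286, the smallest this design can give, and 0.0571 after adjustment over the 2 ratios of the main question, so it did not pass. With the other ratio of that family at a large p, no separation of 4 against 4 hearts could have passed, and the adjusted value says nothing about the size of the difference. Both genes lie side by side on chromosome 14 (Myh6 at 54941921 to 54966927, Myh7 at 54970684 to 54994626, 3756 bases apart) and are close in sequence: 21.2% of the 50-base windows of Myh7 transcripts also occur in Myh6 transcripts. How the authors' quantification divided reads between them is not stated, so the level of Myh7, the scarcer of the pair, is uncertain.

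The thin filament held both members that fell. Of its 9 genes, 0 rose, 2 fell (22.2%, against 6.01% of all genes) and 7 did not pass. Cardiac troponin I, Tnni3, the inhibitory subunit of the adult heart, measured 3502, 3836, 3836 and 4725 FPKM in wild type hearts, and 3011, 2631, 2883 and 3011 FPKM in knockout hearts. All knockout values were below all wild type values. The mean fell from 3975 ± 524 to 2884 ± 179 FPKM (SD, n = 4), 1.38-fold (log2 change -0.46 ± 0.10, limma adjusted p = 0.0169), which is a move within ranks 17 to 24. The call was lost without knockout replicate 2 (adjusted p = 0.0519).

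Tnnt1, slow skeletal troponin T, a form that the young heart expresses at low level beside the cardiac form Tnnt2, fell as well. It measured 37.0, 31.6, 24.1 and 54.5 FPKM in wild type hearts, and 18.3, 16.5, 21.8 and 17.6 FPKM in knockout hearts. The groups did not overlap, and wild type replicate 4, the library with lung markers, was the highest. The mean fell from 36.8 ± 12.9 to 18.5 ± 2.32 FPKM (SD, n = 4), 1.99-fold (log2 change -0.90 ± 0.21, limma adjusted p = 0.0248). Without wild type replicate 4 the log2 change was -0.69 and the gene was still called. The call was lost without wild type replicate 1 (adjusted p = 0.0588), wild type replicate 2 (0.0570) or knockout replicate 2 (0.0687). Of the 5 skeletal muscle markers that were tested, 1 fell, and the other 4 had a higher mean in the knockout and did not pass. The gene that fell was Tnni2, fast skeletal troponin I (limma adjusted p = 0.00154). Tnni2 ran from 5.11 to 7.06 FPKM in the wild type and from 1.58 to 2.83 FPKM in the knockout libraries. The summed marker list, mostly Eno3, ran from 738 to 887 FPKM in the wild type and from 906 to 959 FPKM in the knockout. The part of skeletal muscle tissue in the result for Tnnt1 was not tested. Tnnt1 (chromosome 7, 4504570 to 4516382) and Tnni3 (4518305 to 4524229) are neighbours, 1922 bases apart.

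A further troponin pair, Tnni1 and Tnnt2, lies on chromosome 1 with 25364 bases between. Tnni1, the troponin I of the fetal heart and of slow muscle, had the largest SD relative to its mean among the 43 genes in the wild type. It measured 34.3, 32.8, 20.2 and 106 FPKM in wild type hearts, and 19.0, 38.5, 74.3 and 27.0 FPKM in knockout hearts, with the highest values in wild type replicate 4 and knockout replicate 3. In these libraries the skeletal muscle myosins Myh1 and Myh4 were at 0.00918 FPKM or less, while other genes of the skeletal marker list were detected. Tnni2 was at 5.11 FPKM and Mybpc2 at 3.36 FPKM in wild type replicate 4, for each gene the lowest of the wild type libraries. In knockout replicate 3 Tnni2 was at 2.39 FPKM and Mybpc2 at 3.08 FPKM, each within the range of the other knockout libraries. Eno3, which heart muscle expresses too, made up most of the summed list, at 727 FPKM or more in every library. The summed list was lowest in wild type replicate 4, at 738 FPKM. The part that other tissue had in the high Tnni1 and Tnnt1 of wild type replicate 4 was not tested. Tnni1 did not pass the test (log2 change -0.17 ± 0.55, limma adjusted p = 0.866), and Tnnt2 was 1.20-fold lower with overlapping libraries (adjusted p = 0.261).

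The troponin I ratio therefore gave no shift beyond the spread. For every 1000 FPKM of Tnni3 there were 9.81, 8.54, 5.27 and 22.3 FPKM of Tnni1 in the wild type hearts and 6.32, 14.6, 25.8 and 8.96 FPKM in the knockout hearts. The highest value of each group was more than double the group's lowest, and the ranges overlapped almost wholly. The log2 difference was 0.28 ± 0.62 (exact two-sided permutation p = 0.629, and 0.629 adjusted over the 2 ratios). It was -0.03 without wild type replicate 3 and -0.09 without knockout replicate 3, so not even its direction was fixed. An interval this wide does not show that the ratio was alike in the groups. Tnni1 and Tnni3 transcripts share 0 windows of 50 bases, as do the pairs that follow.

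Of 5 further ratios, 2 had no overlap between the groups. There were 6.89, 4.49, 4.49 and 7.74 FPKM of Tnnt1 per 1000 FPKM of Tnnt2 in the wild type hearts and 4.37, 3.48, 4.07 and 2.72 FPKM in the knockout hearts (log2 difference -0.67 ± 0.26, exact two-sided permutation p = 0.0286, adjusted over these 5 ratios p = 0.0714). Tnnt1 was thus the smaller part in each knockout heart, though wild type replicates 2 and 3 came close. Beta tropomyosin, Tpm2, moved the other way against the main cardiac tropomyosin Tpm1, with 3.73, 3.54, 2.99 and 3.87 FPKM per 1000 in the wild type and 5.81, 8.68, 4.56 and 3.95 FPKM per 1000 in the knockout hearts (log2 difference 0.64 ± 0.26, exact permutation p = 0.0286, adjusted p = 0.0714). Knockout replicate 4 lay just above the wild type range. Neither ratio passed after adjustment, and with only 2 of the 5 ratios at the smallest p none could.

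The other 3 ratios overlapped between the groups. They set the atrial light chains Myl7 and Myl4 against the ventricular forms Myl2 and Myl3, and the brain type creatine kinase Ckb against the muscle type Ckm. The adjusted exact permutation p were 0.943 for Myl7 to Myl2, 0.893 for Myl4 to Myl3 and 0.238 for Ckb to Ckm, which had 50.8 ± 6.58 FPKM of Ckb per 1000 FPKM of Ckm in the wild type and 68.4 ± 15.9 in the knockout (SD, n = 4). Ckb itself was called higher, at 47.0 to 66.0 FPKM in the wild type and 66.1 to 104 FPKM in the knockout libraries (1.57-fold, limma adjusted p = 0.0345). In knockout replicate 2 Myl4 stood at 249 per 1000 FPKM of Myl3, against 34.9 in knockout replicate 1. Tissue from the atria may be present in unequal amounts, as Bmp10 differed between libraries, and its part in these values was not tested.

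**Figure D3:**
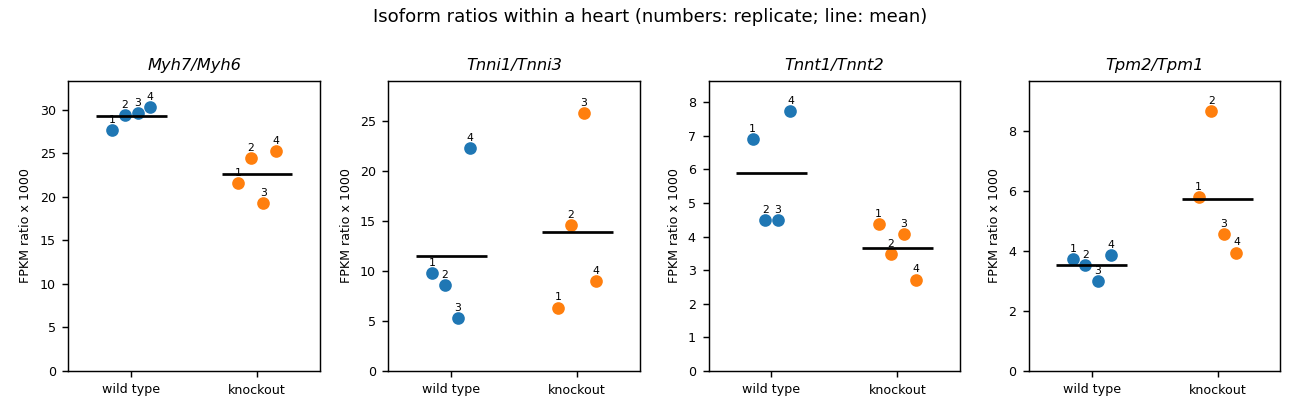
Ratio of 2 isoform genes within a heart, times 1000, for 4 pairs; points are libraries with their replicate numbers, wild type in blue and knockout in orange, and a black line marks the mean of 4. Myh7 to Myh6 separates the groups at 29.3 against 22.7, Tnnt1 to Tnnt2 and Tpm2 to Tpm1 separate them narrowly, and Tnni1 to Tnni3 overlaps.

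Among the other thin filament genes, Tpm2 itself had no overlap between the groups, at 26.2 to 37.3 FPKM in the wild type and 38.1 to 72.7 FPKM in the knockout libraries, and did not pass the test (limma adjusted p = 0.0866). Lmod2, leiomodin 2, which lengthens thin filaments, was at 120.3 ± 26.5 FPKM in the wild type and 162 ± 13.8 FPKM in the knockout (adjusted p = 0.0692) and passed only without wild type replicate 1 among the omissions (adjusted p = 0.0248). Troponin C (Tnnc1), cardiac actin (Actc1) and Tpm1 lay on the shared values of the top ranks, with log2 changes of 0.18, -0.13 and -0.05 (adjusted p of 0.383 to 0.694). Actc1 was at 9635 FPKM in knockout replicates 1, 2 and 3 and at 5365 FPKM in knockout replicate 4.

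In the M-band, 1 of the 3 genes that include titin rose. Myomesin 1, Myom1, which links thick filaments at the M-band (chromosome 17, 71002633 to 71126856), measured 239, 194, 225 and 194 FPKM in wild type hearts, and 259, 272, 309 and 342 FPKM in knockout hearts, without overlap. The mean rose 1.39-fold to 296 ± 37.3 FPKM (SD, n = 4; log2 change 0.47 ± 0.11, limma adjusted p = 0.0229). Its call was lost without wild type replicate 2 (adjusted p = 0.0793), wild type replicate 4 (0.0659) or knockout replicate 3 (0.0617). Myomesin 2, Myom2, was at 239.9 ± 68.6 FPKM in the wild type and 225 ± 33.5 FPKM in the knockout (adjusted p = 0.855). Titin, Ttn, measured 28.2, 26.5, 28.4 and 25.6 FPKM in wild type hearts, and 34.0, 26.3, 32.8 and 32.9 FPKM in knockout hearts. Knockout replicate 2 alone fell into the wild type range, and titin did not pass (log2 change 0.20 ± 0.09, limma adjusted p = 0.184).

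Rbm20, the splicing factor that sets the titin isoform, gave no difference beyond the spread. It measured 43.9, 31.2, 36.2 and 32.5 FPKM in wild type hearts, and 32.2, 31.4, 40.5 and 31.6 FPKM in knockout hearts (log2 change -0.08 ± 0.12, limma adjusted p = 0.713). Gene-level values do not show which exons were included. In a list of 20 muscle splicing regulators and further Rbm20 targets, 3 rose, 0 fell and 17 did not pass, with a median log2 change of 0.19. The raised genes were the calcium/calmodulin kinase Camk2d (1.54-fold, limma adjusted p = 0.0378), the splicing factor Celf2 (1.59-fold, adjusted p = 0.0462) and Lmo7 (1.55-fold, adjusted p = 0.0493). Each of these 3 calls was lost in 6 of 8 omissions, those other than replicate 1 of either group (adjusted p up to 0.114, 0.127 and 0.139).

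At the Z-disc, where thin filaments of neighbouring sarcomeres are anchored, 2 of 11 genes rose and 9 did not pass. Pdlim5, a PDZ and LIM domain protein also called ENH (chromosome 3, 142239590 to 142395696), measured 339.7, 288, 371 and 247 FPKM in wild type hearts, and 427, 454, 468 and 442 FPKM in knockout hearts. The knockout hearts lay close together and above all wild type hearts. The mean rose from 311 ± 55.1 to 448 ± 17.5 FPKM (SD, n = 4), 1.44-fold (log2 change 0.54 ± 0.12, limma adjusted p = 0.0195). The call was lost without wild type replicate 2 (adjusted p = 0.0677), knockout replicate 2 (0.0534) or knockout replicate 3 (0.0534).

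Nebulette, Nebl, the cardiac relative of nebulin (chromosome 2, 17343909 to 17731464), measured 76.6, 50, 67.4 and 49.8 FPKM in wild type hearts, and 72.9, 93.0, 129.6 and 138 FPKM in knockout hearts. Knockout replicates 3 and 4 were high, and knockout replicate 1 lay inside the wild type range. The mean rose 1.78-fold to 108 ± 30.6 FPKM (SD, n = 4; log2 change 0.80 ± 0.22, limma adjusted p = 0.0423), the largest rise among the called members. The call depended on most libraries. It was lost without wild type replicate 2 (adjusted p = 0.122), 3 (0.0702) or 4 (0.106) and without knockout replicate 2 (0.0729), 3 (0.0998) or 4 (0.0753).

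The remaining Z-disc genes showed smaller or more scattered differences. Alpha-actinin 2 (Actn2), the main cross-linker of the Z-disc, had a log2 change of 0.09 ± 0.09, cypher (Ldb3) 0.06 ± 0.11, myozenin 2 (Myoz2) 0.10 ± 0.09 and nexilin (Nexn) 0.20 ± 0.09, at limma adjusted p of 0.190 to 0.764. Tcap, or telethonin, which caps titin, measured 447, 437, 344 and 411 FPKM in wild type hearts, and 229, 259, 285 and 540.2 FPKM in knockout hearts. Knockout replicates 1 to 3 were below all wild type libraries and knockout replicate 4 above them. Tcap did not pass (adjusted p = 0.298), but did without knockout replicate 4 (log2 change -0.66, adjusted p = 0.00720). Csrp3, or muscle LIM protein, ran from 1053 to 1257 FPKM in the wild type and from 768 to 1509 FPKM in the knockout libraries, with knockout replicate 4 the lowest and knockout replicate 1 the highest. Filamin C (Flnc) ran from 21.9 to 32.0 and from 20.6 to 44.6 FPKM, and Pdlim3 from 22.2 to 32.0 and from 17.4 to 41.2 FPKM.

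**Figure D4:**
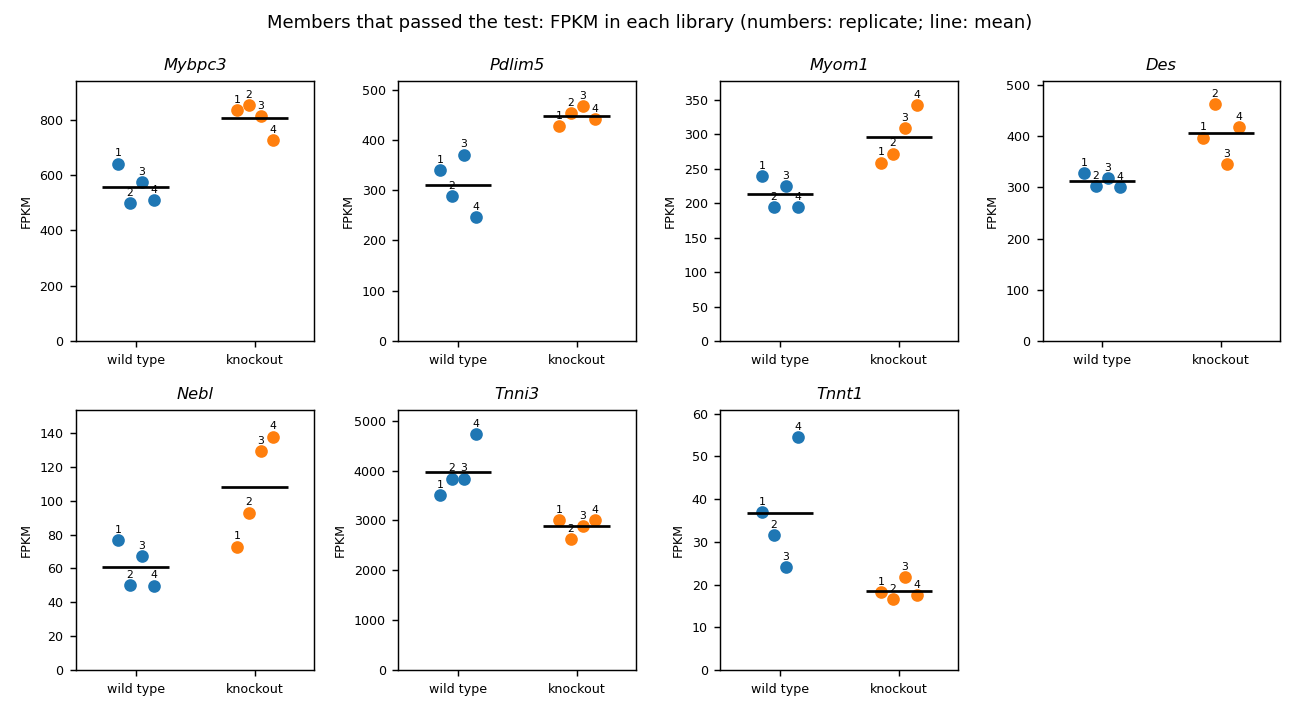
FPKM of the 7 members that passed the test, on axes that start at 0; points are libraries with their replicate numbers, wild type in blue and knockout in orange, and a black line marks the mean of 4. The groups do not overlap except for Nebl, where knockout replicate 1 at 72.9 FPKM lies below wild type replicate 1 at 76.6 FPKM.

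Of the 5 genes of the intercalated disc, the costamere and the desmin filaments, 1 rose. Desmin, Des, the intermediate filament that ties Z-discs together (chromosome 1, 75360329 to 75368579), measured 328, 303, 318 and 301 FPKM in wild type hearts, and 397, 462, 345 and 417 FPKM in knockout hearts, without overlap. The mean rose 1.30-fold to 405 ± 48.5 FPKM (SD, n = 4; log2 change 0.37 ± 0.09, limma adjusted p = 0.0325). It lost its call in 5 of 8 omissions, namely wild type replicate 1 (adjusted p = 0.0521), 2 (0.0971), 3 (0.0665) or 4 (0.0813) and knockout replicate 2 (0.0785). Xirp1, an actin-binding protein of the intercalated disc, had no overlap either, at 26.4 to 34.0 FPKM in the wild type and 35.3 to 54.2 FPKM in the knockout, and did not pass (adjusted p = 0.0784). Its relative Xirp2 was at 8.02 to 14.9 and 9.69 to 34.8 FPKM (adjusted p = 0.279), Nrap at 47.8 to 80.3 and 52.8 to 83.4 FPKM (adjusted p = 0.802) and Smpx at 334 to 359.9 and 353 to 411 FPKM (adjusted p = 0.380).

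Ankrd1, a stress-responsive ankyrin repeat protein that binds titin and also acts in the nucleus, had the largest mean difference of the 43 genes and did not pass the test. It measured 287, 227, 287 and 376 FPKM in wild type hearts, and 1127, 996, 658 and 221 FPKM in knockout hearts. Knockout replicates 1 to 3 exceeded every wild type heart, and knockout replicate 4 was below all of them. The mean was 294 ± 61.5 FPKM in the wild type and 751 ± 404 FPKM in the knockout (SD, n = 4), 2.55-fold higher (log2 change 1.13 ± 0.47, limma adjusted p = 0.148). Without knockout replicate 4 it passed (log2 change 1.64, adjusted p = 0.00333). The choice of that omission was made with the values in view, and leaving out any other single library gave no call. Ankrd1 also passed without both replicates 4 (limma adjusted p = 0.00460) and with array weights (0.0125).

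The knockout hearts also differed among themselves in Ankrd23 and Synpo2l, which were picked for their spread. Ankrd23, a relative of Ankrd1, was at 155, 70.1, 65.8 and 21.5 FPKM in knockout replicates 1 to 4 and at 51.3 to 83.7 FPKM in the wild type. Synpo2l, a Z-disc protein, was at 93.6, 55.5, 59.1 and 24.2 FPKM in the knockout and at 47.6 to 58.5 FPKM in the wild type libraries. In both genes knockout replicate 1 lay above and knockout replicate 4 below the wild type range. Measured against the other 3 knockout libraries, 5 of the 43 genes differed by more than 1 on the log2 scale in replicate 1 (Synpo2l, Xirp2, Ankrd1 and Ankrd23 higher, Tnni1 lower) and 5 in replicate 4 (Tcap and Fbxo32 higher, Synpo2l, Ankrd1 and Ankrd23 lower). In each of the other 6 libraries at most 1 gene did so, and it was Tnni1. Knockout replicate 1 is the knockout library without Ddx3y expression and knockout replicate 4 the one with the separate library number. The part of sex or of batch in these values was not tested. Most exon bases of Ankrd23 (78.2%) also belong to another annotated gene on the same strand, Gm42417, so its level is uncertain.

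**Figure D5:**
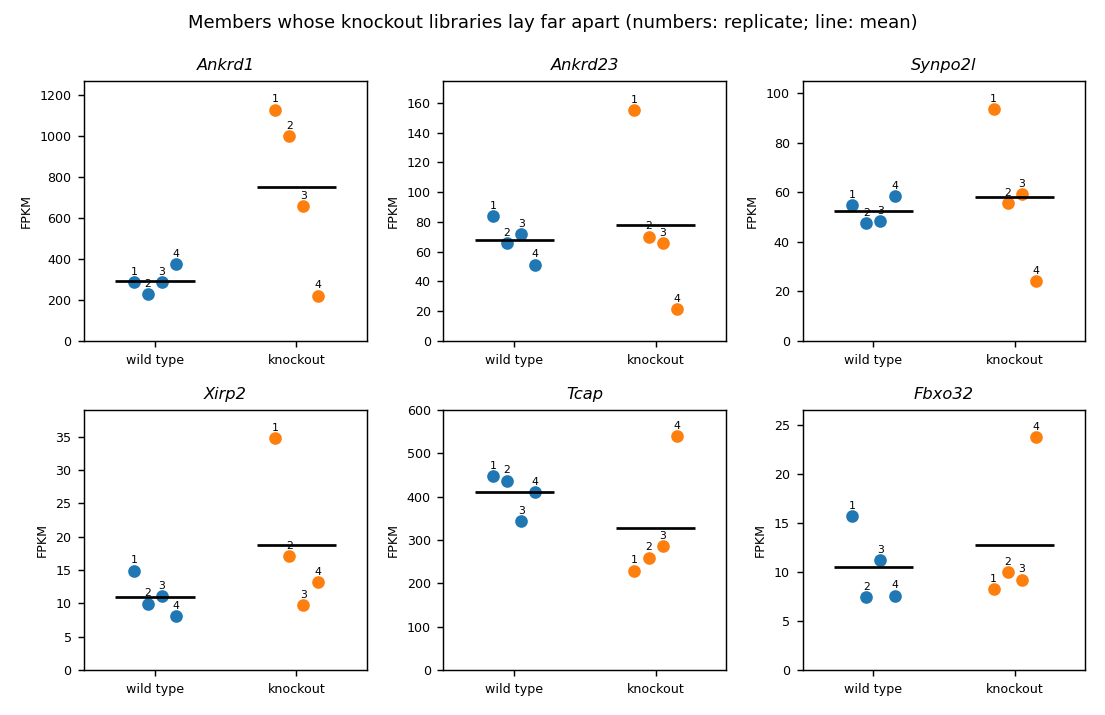
FPKM of 6 members whose knockout libraries lay far apart, on axes that start at 0; points are libraries with their replicate numbers, wild type in blue and knockout in orange, and a black line marks the mean of 4. Ankrd1, Ankrd23 and Synpo2l are highest in knockout replicate 1 and lowest in knockout replicate 4, while Tcap and Fbxo32 are highest in knockout replicate 4.

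None of the 4 muscle ubiquitin ligase genes passed the test. All 4 had a higher mean in the knockout, as did 48.3% of the 11390 genes tested, and 4 genes are too few to read as a set. Trim63, or MuRF1, which marks myosin and other sarcomere proteins for degradation, measured 98.2, 73.2, 80.7 and 72.5 FPKM in wild type hearts, and 88.6, 98.2, 109 and 123 FPKM in knockout hearts (log2 change 0.36 ± 0.13, limma adjusted p = 0.0872). Its groups overlapped through wild type replicate 1. Trim55, or MuRF2, was at 32.9 ± 8.92 FPKM in the wild type and 53.6 ± 11.9 FPKM in the knockout (SD, n = 4; adjusted p = 0.0522), and Trim54, or MuRF3, at 21.1 ± 2.97 and 32.3 ± 9.26 FPKM (adjusted p = 0.121). Omission of replicate 1 of the wild type or of the knockout gave calls for Trim63 (adjusted p = 0.0468 and 0.0433) and Trim55 (0.0300 and 0.0231), and Trim54 passed without knockout replicate 3 (0.00774).

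Fbxo32, the fourth of them, measured 15.7, 7.46, 11.2 and 7.60 FPKM in wild type hearts, and 8.28, 9.98, 9.22 and 23.8 FPKM in knockout hearts. Knockout replicate 4 alone raised the mean of its group (log2 change 0.20 ± 0.34, limma adjusted p = 0.730), and without it the log2 change was -0.12. In a list of other genes of muscle atrophy and autophagy, 1 of 22 rose, 0 fell and 21 did not pass, with a median log2 change of 0.11. The share raised was 4.55%, against 6.15% of all genes. The raised gene was the mitophagy receptor Bnip3, at 56.3 ± 5.13 FPKM in the wild type and 113 ± 26.8 FPKM in the knockout (SD, n = 4; adjusted p = 0.00510).

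The oxygen and energy buffers of the muscle cell did not pass either. Myoglobin, Mb, the oxygen-binding protein, measured 6459, 8376, 8376 and 8759 FPKM in wild type hearts, and 8376, 7544, 6459 and 7038 FPKM in knockout hearts, all within ranks 10 to 14 (log2 change -0.12 ± 0.11, limma adjusted p = 0.525). The groups shared most of their range. Muscle creatine kinase (Ckm) was at 1082 ± 125 and 1263 ± 129 FPKM and the mitochondrial creatine kinase of sarcomeric muscle (Ckmt2) at 803 ± 78.9 and 919.5 ± 135 FPKM (SD, n = 4; adjusted p = 0.183 and 0.310).

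Beyond the 43 genes, other parts of the same machinery were read from lists. In the list of other sarcomere genes, 2 of 37 rose, 2 fell and 33 did not pass, with a median log2 change of 0.05. Each share was 5.41%, against 6.15% of all genes raised and 6.01% lowered. Tropomodulin 4 (Tmod4), a cap of thin filaments, fell 1.80-fold (limma adjusted p = 0.0156). The actin-capping subunit Capzb rose 1.23-fold (adjusted p = 0.0334) and Srl, or sarcalumenin, a protein of the sarcoplasmic reticulum, 1.43-fold (adjusted p = 0.0296). The call of Capzb was lost in 5 of 8 omissions, those of the 4 wild type libraries and of knockout replicate 2 (up to 0.0904), and that of Srl in 4 of 8, wild type replicates 2 and 4 and knockout replicates 2 and 3 (up to 0.0951).

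Among 17 measured genes of sarcomere assembly and small heat shock proteins, 1 rose, 2 fell and 14 did not pass. The shares were 5.88% raised and 11.8% lowered, against 6.15% and 6.01% of all genes. The small heat shock protein Hspb8, a partner in the clearance of damaged filament proteins, rose from 137 ± 7.02 to 229.8 ± 45.0 FPKM (SD, n = 4; log2 change 0.72 ± 0.13, limma adjusted p = 0.00955). Klhl31 fell from 19.0 ± 2.41 to 10.6 ± 2.44 FPKM (adjusted p = 0.00925), and Unc45b, a myosin chaperone, 1.21-fold (adjusted p = 0.0359). Hspb8 and Klhl31 were called in all 8 omissions. The call of Unc45b was lost in 6 of 8, with knockout replicates 3 and 4 the exceptions (up to 0.0893).

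Of 35 genes of the intercalated disc and costamere outside the members, 2 rose, 1 fell and 32 did not pass. Lims2, an adaptor of integrin adhesions, fell 2.16-fold, from 58.9 ± 4.64 to 27.3 ± 3.11 FPKM (SD, n = 4; log2 change -1.09 ± 0.10, limma adjusted p = 0.000421). It was called in all 8 omissions. Delta-sarcoglycan (Sgcd) rose 1.97-fold (adjusted p = 0.0235) and integrin beta 1 (Itgb1) 1.24-fold (adjusted p = 0.0452). The call of Sgcd was lost in 5 of 8 omissions, wild type replicates 2, 3 and 4 and knockout replicates 2 and 3 (up to 0.0685), and that of Itgb1 in 7 of 8, with knockout replicate 1 the exception (up to 0.135). Adaptors and integrins of this list are not restricted to cardiomyocytes.

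In the list of SRF, TEAD and stretch-responsive genes, 2 of 20 rose, 0 fell and 18 did not pass, with a median log2 change of 0.19. Ctgf, a target of TEAD factors, rose 3.42-fold (log2 change 1.71 ± 0.17, limma adjusted p = 0.000693). Tead1, which binds the MCAT motif, rose from 5.87 ± 2.59 to 17.3 ± 4.75 FPKM (SD, n = 4; log2 change 1.45 ± 0.28, adjusted p = 0.0124). The table holds a further row named Tead1, under an identifier that is not in GENCODE M21, which was at 17.1 to 21.5 FPKM in all libraries (log2 change -0.03, adjusted p = 0.878), so the summed level of Tead1 is uncertain. Srf itself was at 26.9 ± 1.95 FPKM in the wild type and 24.7 ± 1.70 FPKM in the knockout (adjusted p = 0.379). The natriuretic peptide gene Nppa had no overlap, at 1246 to 1786 FPKM in the wild type and 2195 to 8759 FPKM in the knockout libraries. Nppa did not pass the test (2.91-fold, limma adjusted p = 0.0580). Its relative Nppb ran from 158 to 219 and from 119 to 1357 FPKM, with knockout replicate 4 the lowest (limma adjusted p = 0.219).

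The called members differed in transcript length. The longest annotated transcripts of the 5 raised genes measured 3028 to 8079 bases and those of the 2 lowered genes 912 and 1059 bases, while the median of the 43 genes was 2742 bases. When a smooth trend with transcript length was removed from each library, an alternative chosen after seeing the data, 5 members were still called higher and 3 lower, with Myh7 as the further one (adjusted p = 0.0215). Exons of Tnni3, Des and Myom1 share 86, 220 and 207 bases with another annotated gene, 4.17%, 5.86% and 1.98% of their exon bases. The partner of Tnni3 lies on the same strand, so strand would not separate its reads in these bases. The partners of Des and Myom1 lie on the opposite strand. As the strandedness of the authors' counting is not stated, their reads cannot be separated either.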

How the data were processed

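RNA from hearts was isolated with a spin-column kit and sequenced from Illumina TruSeq libraries, per the labels' protocols. Per the submitters' processing notes, TopHat2 and Cufflinks were used with mm10, without stated versions. What the authors deposited are quantile normalised FPKM, 1 column per library for 22518 genes, with no depth or counts. The unit was read from the tools named and from values that are not whole, and the normalisation from the identical numbers in the highest ranks of all libraries.

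Values of genes averaging 1 FPKM or more were transformed to log2(FPKM + 1) and compared in limma 3.58.1 under R 4.3.3 (trend and robust options, no covariate, Benjamini-Hochberg adjustment over 11390 genes, threshold 0.05). Ratios of 2 genes within a heart were tested by exact two-sided permutation of the 70 splits in Python 3.11.15. The limma fit was tested on simulated data with known changes. Coordinates and transcripts came from GENCODE M21 (mm10), which held 21739 of the gene identifiers and all 43 members, and promoters from RefSeq.

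Alternatives changed the pseudocount, filter, scaling, variance model, sample weights, threshold and covariate, added a replicate block or left out libraries. Removal of a trend with length or GC content was added after seeing the data. The members and lists were chosen with earlier results of these data known. Values in every library are given for called members, for the Myh7 to Myh6 and Tnni1 to Tnni3 pairs and for Ttn, Des, Mb, Ankrd1, Rbm20, Trim63 and Fbxo32, with up to 4 called genes of each other list by smallest p. Myl2, Tcap, Ankrd23, Synpo2l, Actc1, Nppa, Nppb, Myl7 and Ckb were singled out after their values were seen. The planned ratio of Acta1 to Actc1 was not analysed here, which left 5 ratios in the second family. One called gene of the list of other sarcomere genes is counted but not reported here.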

Additional observations from a re-analysis of the deposited data

Results flagged for a closer look

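In a group of 4 libraries, a value was singled out when its gap to the nearest other library was, as a share of the whole range, above the 95% limit of Dixon's test. Of 100 groups tested, 8 met this, and chance gives about 1 in 20. In the wild type, Tnni1 was at 106 FPKM in replicate 4, against 20.2 to 34.3 FPKM in the others. Mb was at 6459 FPKM in replicate 1, against 8376 to 8759 FPKM. Ckmt2 was at 684 FPKM in wild type replicate 4, against 835 to 846 FPKM. In the knockout, Actc1 was at 5365 FPKM in replicate 4 while the other 3 libraries all held 9635 FPKM. Myl3 was at 5365 FPKM in replicate 2 while the others held 5840.4 FPKM. For these top-ranked genes quantile normalisation gives the libraries shared values, so a step of a single rank sufficed for Myl3. Ttn was at 26.3 FPKM in knockout replicate 2, against 32.8 to 34.0 FPKM. Fbxo32 was at 23.8 FPKM in knockout replicate 4, against 8.28 to 9.98 FPKM, and Rbm20 at 40.5 FPKM in knockout replicate 3, against 31.4 to 32.2 FPKM.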

How the results depend on the processing

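Across all genes, 701 higher and 684 lower calls became 191 and 180 at adjusted p under 0.01, 24 and 13 at a minimum change of 1.5-fold, and 323 and 290 with the replicate block. There were 467 higher calls without both replicates 4, 316 with member-centred scaling, and 1055 lower calls with array weights. With 1 library left out they ran from 288 to 931 higher and from 286 to 888 lower. Of the members, 5 were higher and 2 lower. The counts were 3 and 1 with no filter, 1 and 0 at adjusted p under 0.01, 0 and 0 at a minimum of 1.5-fold, 2 and 0 with the replicate block, and 3 and 4 without both replicates 4. With member-centred scaling 2 were higher and with array weights 8. With 1 library left out 1 to 7 were higher and 0 to 4 lower. The fewest higher calls came without wild type replicate 2 and the fewest lower ones without knockout replicate 2. In the replicate block only Mybpc3 and Pdlim5 were called. Beside the omissions given with each gene, the calls of Tnnt1, Nebl and Des were lost with no filter, those of Mybpc3, Pdlim5, Myom1 and Des with member-centred scaling, those of Nebl and Des with the Ddx3y covariate and those of Myom1, Nebl and Des without both replicates 4. Deviations of same-numbered libraries correlated at -0.226 to 0.102, which gave no sign of pairing. So few values cannot exclude a pairing, and the labels do not state one.

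The exact tests of the ratios were too small to say whether they are stable. The smallest p possible was 0.0286 with 1 library left out, which adjusts to 0.0571 for a single separated ratio in the family of 2, and it was 0.125 with pairs of the same number as a block and 0.10 without both replicates 4. With 1 library left out the log2 difference of Myh7 to Myh6 ran from -0.43 to -0.30, of Tnni1 to Tnni3 from -0.09 to 0.67, of Myl7 to Myl2 from -0.23 to 0.51 and of Myl4 to Myl3 from -0.27 to 0.67.

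Directions turned only for members that were not called. With member-centred scaling the log2 change was -0.03 for Myh6, -0.04 for Actn2, -0.08 for Ldb3, -0.04 for Myoz2, -0.13 for Synpo2l, -0.06 for Nrap and -0.03 for Smpx. With array weights it was 0.41 for Tnni1, 0.10 for Myom2, -0.04 for Ldb3, 0.03 for Csrp3, 0.09 for Pdlim3, 0.03 for Ankrd23 and -0.08 for Fbxo32. With the Ddx3y covariate it was 0.01 for Csrp3 and 0.15 for Ankrd23. Without both replicates 4 it was 0.05 for Actc1, 0.41 for Tnni1, 0.19 for Myom2, -0.08 for Ldb3, 0.11 for Csrp3, 0.28 for Ankrd23 and -0.24 for Fbxo32. With the length trend removed it was -0.02 for Synpo2l. With 1 library left out the range was -0.20 to 0.08 for Actc1, -0.53 to 0.29 for Tnni1, -0.20 to 0.10 for Myom2, -0.02 to 0.13 for Ldb3, -0.21 to 0.11 for Csrp3 and -0.35 to 0.05 for Pdlim3. It was -0.27 to 0.37 for Synpo2l, -0.05 to 0.21 for Nrap, -0.52 to 0.41 for Ankrd23, -0.12 to 0.40 for Fbxo32 and -0.16 to 0.02 for Rbm20. The cause of these changes was not tested.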
